A study of Mus musculus with 4 samples.

Results

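The 10 genes Mbp, Mobp, Mog, Mag, Cnp, Aspa, Sox10, Myrf, Pdgfra and Rtn4 stand for myelin and the oligodendrocyte lineage, and binding of the transcription factor STAT3 around them was described in injured and uninjured mouse spinal cord. A peak was assigned to a gene when its centre lay inside the gene or within 50 kb of either end, with gene positions from the RefSeq annotation of GRCm38. By this rule 37 of 36249 peaks in the list from injured cord and 52 of 88765 peaks in the list from sham cord belonged to the 10 genes, and no peak belonged to more than 1 of them. The rule names the genes and uses no measured value, but the genes were proposed with earlier results of these data known.

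Chromatin immunoprecipitation with sequencing (ChIP-seq) was done with a rabbit antibody against STAT3 on cells dissociated from the epicentre of the spinal cord of C57BL/6 mice. The injured group (SCI) had a moderate contusion of 60 kdyn at thoracic level 9, and the sham group had only the laminectomy at that level; both were taken 7 days after surgery. Each group had 1 STAT3 library, made from pooled tissue of 3 mice, and 1 input library, which was not analysed here. There are therefore no replicates, no difference between SCI and sham has a replicate check, and the lists hold every cell type of the dissociated tissue, since the protocol names no sort. The labels give no age or sex of the mice, and the files hold no expression values with which the presence of oligodendrocytes could be checked.

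Oligodendrocytes wrap axons in myelin, a stack of compacted membrane that speeds conduction, and they arise from progenitor cells that divide and migrate in the adult cord. Contusion kills oligodendrocytes and strips axons of myelin, and progenitors later make new myelin. STAT3 is a transcription factor switched on by cytokines, best known in the injured cord from reactive astrocytes, and it also acts in oligodendrocyte progenitors.

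No peak of either list covered an annotated start of the 7 members whose starts could be checked. RefSeq promoter windows, which run from 250 bases before to 50 bases after a start, were at hand for these members with 11 windows, and not for Mbp, Sox10 and Myrf. Of these 11 windows, 0 were overlapped by an SCI peak and 0 by a sham peak; over all 32851 windows the shares were 0.682% (SCI) and 1.69% (sham), so a count of 0 lies near the background. The nearest SCI peak centre to a start lay between 5.03 kb (Cnp) and 68.3 kb (Aspa) away, with a median over the 7 genes of 17.8 kb, against 21.1 kb over all genes of the table. The nearest sham peak lay between 3.31 kb (Mog) and 15.3 kb (Aspa) away, with a median of 10.2 kb, against 8.28 kb.

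Promoter sequences of Mag are shown because Mag was the only one of these 7 members whose windows held the core of a STAT site, the letters TTCNNNGAA, which read the same on both strands. All 3 Mag windows held it, and 2 of them overlap each other and share the same site. The motif was present in 8.3% of all promoter windows, and 9.55% of the genes with a window had it in at least 1. The 2 Mag windows below are from RefSeq (GRCm38.p6), minus strand, written 5′ to 3′, with the motif in capitals. The first, chr7:30914814-30915113, has its match 201 bp upstream of the start, and the other, chr7:30914272-30914571, has it 36 bp downstream of its start, both counted to the first base of the match.
Mag, first window: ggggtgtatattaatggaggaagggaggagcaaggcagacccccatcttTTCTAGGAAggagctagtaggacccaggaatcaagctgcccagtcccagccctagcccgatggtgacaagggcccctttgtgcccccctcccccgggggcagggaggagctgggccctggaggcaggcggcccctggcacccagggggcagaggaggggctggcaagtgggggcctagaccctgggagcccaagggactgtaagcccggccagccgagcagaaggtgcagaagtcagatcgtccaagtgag
Mag, other window: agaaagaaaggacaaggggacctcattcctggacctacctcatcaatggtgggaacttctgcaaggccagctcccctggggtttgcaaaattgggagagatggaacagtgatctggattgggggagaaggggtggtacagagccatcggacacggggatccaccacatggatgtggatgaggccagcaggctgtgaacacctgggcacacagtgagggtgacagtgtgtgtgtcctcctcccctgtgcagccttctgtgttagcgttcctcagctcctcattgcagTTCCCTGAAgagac

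Neither Mag match lay under a peak: the nearest SCI peak centre was 18.4 kb from the first start and 17.8 kb from the other, and the nearest sham peak centres were at 7.18 and 7.72 kb. A match is a description of the letters and no evidence of binding. One promoter window near an oligodendrocyte gene did lie under peaks of both lists. It belongs to Odf3l1, a neighbour of Cspg4, which encodes the NG2 proteoglycan of oligodendrocyte progenitors. It is shown as the only stretch in the windows of the genes described here for which peak sequence was at hand. The SCI peak chr9:56853769-56853932 (score 7.06, top 52.5% of its list) and the sham peak chr9:56853780-56853969 (score 35.2, top 1.53%) had centres 11.3 and 11.2 kb from Cspg4. The window chr9:56853765-56854064 (minus strand, RefSeq, GRCm38.p6) has in capitals the bases covered by both peaks, and it holds no TTCNNNGAA.
Odf3l1: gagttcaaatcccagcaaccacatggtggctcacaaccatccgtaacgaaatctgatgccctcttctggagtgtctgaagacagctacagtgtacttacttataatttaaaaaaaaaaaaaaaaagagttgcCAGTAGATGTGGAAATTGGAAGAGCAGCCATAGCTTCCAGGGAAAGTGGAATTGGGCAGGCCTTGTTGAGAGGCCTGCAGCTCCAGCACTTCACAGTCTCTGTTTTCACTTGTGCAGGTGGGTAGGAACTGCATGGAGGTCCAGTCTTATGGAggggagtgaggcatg

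Every member had a peak within 50 kb in both lists, as most genes did. The counts were 10 of 10 in SCI and 10 of 10 in sham, where 84.2% and 95.6% of 21887 protein-coding genes had one. Within 5 kb, 5 of 10 members had an SCI peak (background 43.9%) and 10 of 10 a sham peak (66.7%). The members with an SCI peak that close were Mbp, Mobp, Mag, Myrf and Pdgfra; the nearest SCI peak of Cnp was at 5.0025 kb. Inside the gene itself 4 of 10 members held an SCI peak (33.4%) and 7 of 10 a sham peak (51%). Mog, Mag and Cnp held no peak of either list, and Aspa, Sox10 and Rtn4 held sham peaks alone. These shares went with gene length over all protein-coding genes: within the length deciles of the members, the share of genes with a sham peak within 5 kb ran from 57.2% (the decile of Sox10) to 99.2% (that of Mbp).

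**Figure D1:**
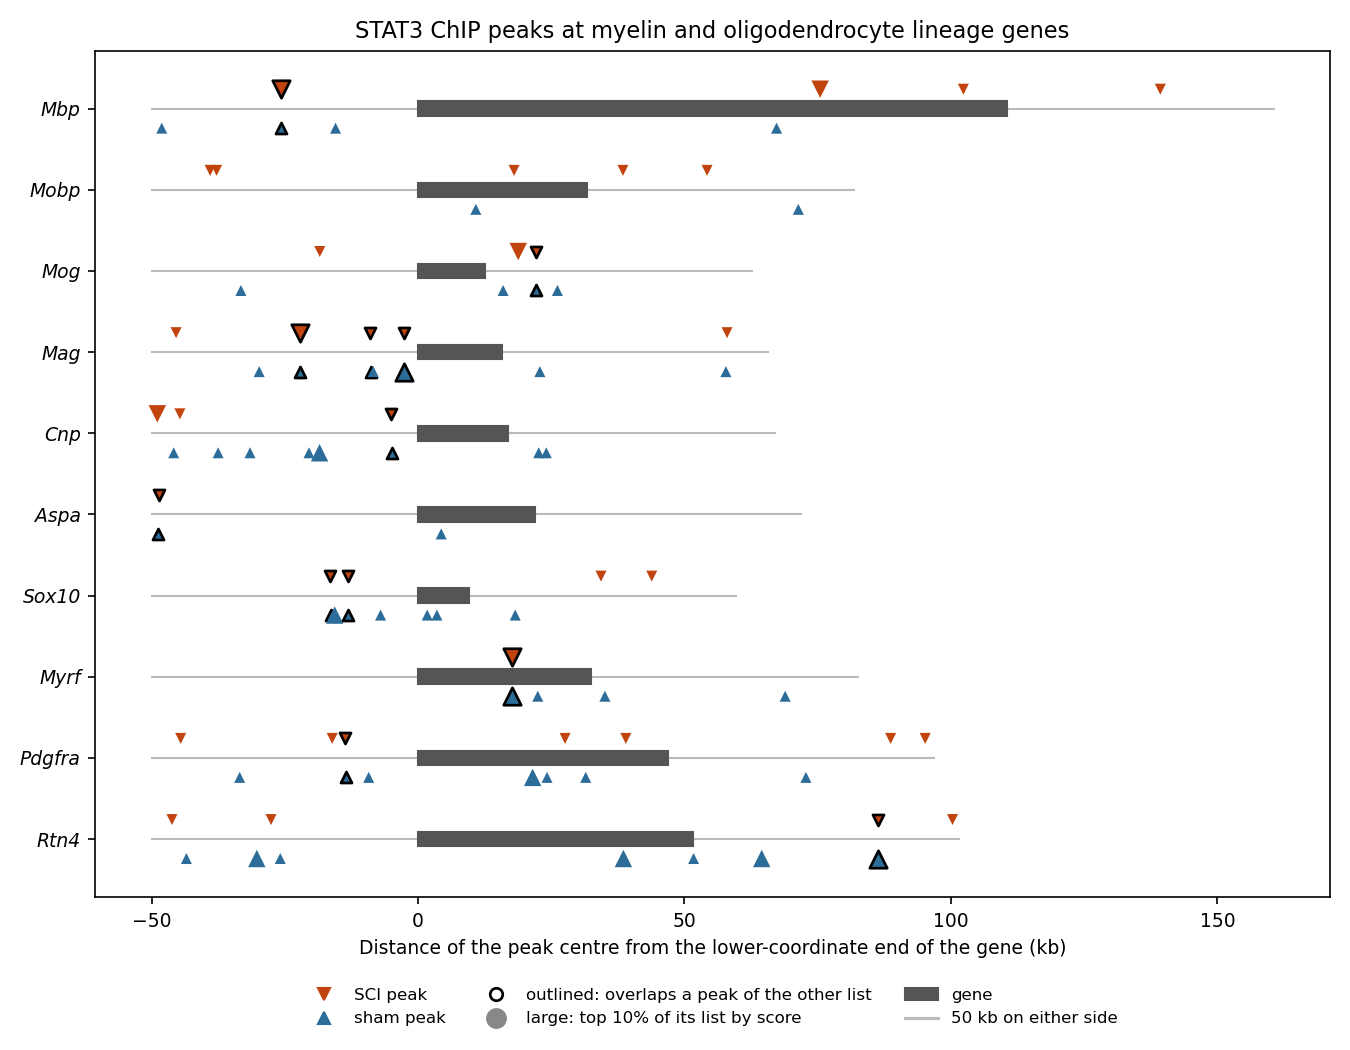
Positions of all 37 SCI peaks (upper triangles) and 52 sham peaks (lower triangles) relative to the lower-coordinate end of each gene, in kb, with the gene as a dark bar and 50 kb on either side as a line. Large symbols mark the top 10% of a list by score, and black outlines mark the 12 SCI and 12 sham peaks that overlap each other; the bars of Mog, Mag and Cnp have no peak above or below them.

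The SCI list had fewer peaks at these genes than the sham list, 37 against 52. SCI peaks made up 41.6% of the 89 peaks at the members (95% exact interval 31.2 to 52.5%) and 28.9% of the 88394 peaks within 50 kb of any protein-coding gene. The SCI share at members was lower in narrower windows, with 12 SCI and 25 sham peaks within 10 kb and 7 and 16 within 5 kb. Inside the genes there were 6 and 11, and no background share was computed for these windows. Within 50 kb, with the sham list shortened to as many top-scoring peaks as the SCI list has, the members had 37 SCI and 20 sham peaks, 64.9% (51.1 to 77.1%), against 49.1% at all genes. Intervals here cover counting error only, neighbouring peaks are not independent, and the genes were proposed with earlier results of these data known. Mobp was the only member with more SCI than sham peaks, where 7.05% of all protein-coding genes had more. Mbp and Pdgfra had equal numbers, as 2187 of 21887 protein-coding genes did, and the other 7 had fewer, as 18158 did. This tally went with the lengths of the lists. Against the shortened sham list 6 members had more SCI peaks (Mbp, Mobp, Mog, Mag, Sox10 and Pdgfra), where 35.3% of all protein-coding genes had more. Aspa had equal numbers, as 5147 of 21887 protein-coding genes did, and Cnp, Myrf and Rtn4 had fewer, as 9006 did. Among peaks that scored at or above the median of their list, the members had 26 in SCI and 26 in sham. That is an SCI share of 50% (35.8 to 64.2%), against 28.9% at all genes.

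**Figure D2:**
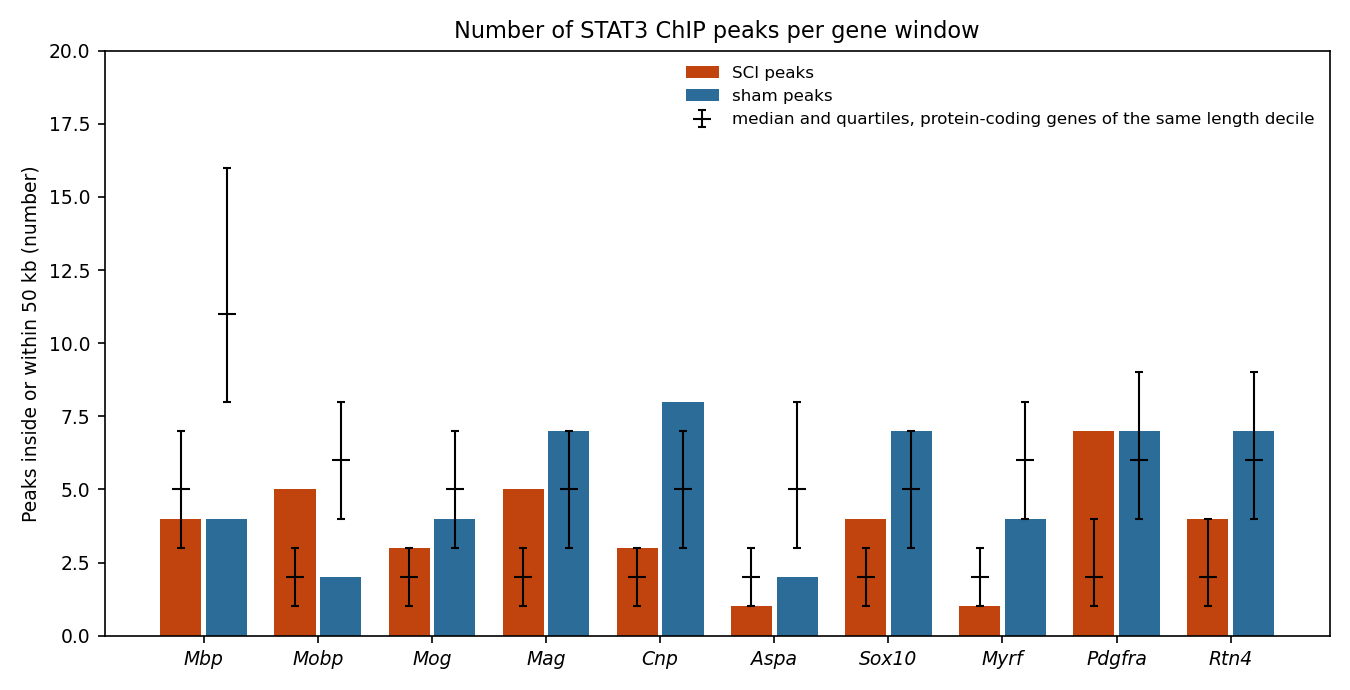
Number of SCI (left bar) and sham (right bar) peaks inside or within 50 kb of each gene. Black marks give the median and quartiles over protein-coding genes of the same length decile. The SCI bars of Mobp, Mag, Sox10 and Pdgfra and the sham bar of Cnp stand above the upper quartile. The sham bars of Mbp, Mobp and Aspa stand below the lower one.

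Set beside genes of similar length, 4 of 10 members exceeded the upper quartile of SCI peaks (Mobp, Mag, Sox10 and Pdgfra), as 18% of all protein-coding genes did, and 0 lay below the lower quartile (15.6%). In sham 1 of 10 exceeded it (Cnp; 20.8%) and 3 lay below the lower one (Mbp, Mobp and Aspa; 19.1%). Mbp sits at the short edge of the longest decile, so it was also set against the 554 protein-coding genes within 10% of its length, a comparison chosen after its values were seen. Those genes had a median of 3 SCI peaks (quartiles 2 and 5) and 8 sham peaks (quartiles 6 and 11), and Mbp, with 4 and 4, again lay below the sham quartile. For Cnp the same comparison, with 1237 genes, gave a sham upper quartile of 8. Cnp, with 8 sham peaks, thus equalled that quartile and no longer exceeded it. The calls of the other members named here did not change.

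The structural proteins of compact myelin come first. Mbp encodes myelin basic protein, which binds the inner membrane faces together (gene ID 17196, chromosome 18, 82475091 to 82585637, 111 kb). Its 4 SCI peaks scored 23.7, 17.6, 9.64 and 6.95, and its 4 sham peaks scored 10.8, 8.36, 6.65 and 6.14. The score is the authors' own value per peak, and it is taken here as the peak's strength, although no source used here states what it measures. Since its scale across lists is not given, each score is read by its rank within its own list. The strongest SCI peak of all 10 genes stood here, 25.7 kb beyond the lower end of Mbp at chr18:82449338-82449501, rank 674 and top 1.86% of the SCI list. A sham peak at chr18:82449353-82449542 overlapped it by 149 bp and had a middling rank, top 47.7%. Inside Mbp the SCI peak chr18:82550463-82550626 (top 5.59%) had no sham peak nearer than 8175 bp, centre to centre. The fourth SCI peak lay inside the neighbour Zfp236.

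Mobp encodes another basic protein of compact central myelin (gene ID 17433, chromosome 9, 120149742 to 120181488). Its 5 SCI peaks scored between 5.88 and 11.5, and its 2 sham peaks scored 8.51 and 5, the lowest score that either list holds. None was shared, which made Mobp the only member with no position in common. The best SCI peak, chr9:120111874-120112037 (top 18.8%), lay 37.8 kb upstream and inside Slc25a38, the gene of a mitochondrial carrier. The best sham peak, chr9:120160502-120160691 (top 46.5%), lay inside Mobp, 7176 bp from the only SCI peak in the gene, chr9:120167691-120167854 (score 5.93, top 69.6%).

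Mog and Mag encode surface proteins of myelin, Mog on the outermost lamella and Mag on the membrane that faces the axon, where it also restrains axon growth. At Mog (gene ID 17441, chromosome 17, 37010740 to 37023398) the 3 SCI peaks scored 18.5, 11.7 and 8.80 and the 4 sham peaks 8.30, 8.01, 5.93 and 5.64. The best SCI peak, chr17:37029473-37029636, was in the top 4.75% and lay 6.16 kb upstream of the gene. The shared position lay a little farther upstream, at 9.44 kb, with the SCI peak chr17:37032761-37032924 (top 17.8%) and the sham peak chr17:37032857-37033046 (top 50.3%) overlapping by 68 bp. All 4 sham peaks at Mog were of middling or low rank; the best of them, chr17:37036808-37036997 (top 48.0%), was nearer to Gabbr1, a GABA-B receptor gene.

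Mag had 3 of the 12 shared positions, more than any other member, and all 3 lay downstream of it (gene ID 17136, chromosome 7, 30899175 to 30914922). The SCI scores were 17, 10.7, 8.76, 6.71 and 5.32, and the sham scores were 20.2, 14.95, 12.4, 7.82, 7.16, 7.01 and 5.64. Nearest to the gene, 2.67 kb downstream, the SCI peak chr7:30896426-30896589 (top 22.3%) and the sham peak chr7:30896446-30896635 (top 8.67%, the best sham peak at Mag) overlapped by 144 bp. At 9.04 kb the SCI peak chr7:30890057-30890220 (top 60.6%) met the sham peak chr7:30890182-30890371 (top 60.7%) over 39 bp. The last shared position had the best SCI peak at Mag, chr7:30876916-30877079 (top 6.12%), over the sham peak chr7:30876944-30877133 (top 59.7%); it lay inside Cd22, a sialic-acid receptor gene of B cells. At Usf2 an SCI peak (chr7:30957085-30957248) and a sham peak (chr7:30956855-30957044) had centres 217 bp apart and did not overlap. The sham centre lay inside Usf2 and the SCI centre 215.5 bp outside it.

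Cnp and Aspa encode enzymes of the myelinating cell. Cnp encodes CNPase, a phosphodiesterase of the uncompacted myelin layers (gene ID 12799, chromosome 11, 100574909 to 100591875). Its 3 SCI peaks scored 14.7, 10.04 and 5.27, and its 8 sham peaks scored between 6.23 and 34.8, the largest number of peaks at any member. For 0 of the 3 SCI and 0 of the 8 sham peaks was Cnp the nearest protein-coding gene. The best SCI peak, chr11:100525919-100526082 (top 9.54%), lay 48.9 kb upstream inside Acly, the gene of ATP citrate lyase, and the best sham peak, chr11:100556351-100556540 (top 1.60%), lay 18.5 kb upstream inside Ttc25. The shared position, inside Ttc25 at 5.0025 kb, was weak in both lists: SCI chr11:100569825-100569988 in the top 88.5% and sham chr11:100569917-100570106 in the top 70.9%.

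Aspa encodes aspartoacylase, which frees acetate from N-acetylaspartate for lipid synthesis (gene ID 11484, chromosome 11, 73304987 to 73326876). It had the fewest peaks, 1 in SCI and 2 in sham. The SCI peak chr11:73256302-73256465 scored 5.64 (top 80.98%) and overlapped the sham peak chr11:73256175-73256364 (score 9.82, top 36.8%) by 63 bp, both inside Trpv1, the capsaicin receptor gene, near the edge of the 50 kb window. Within Aspa there was 1 sham peak, chr11:73309255-73309444, with a score of 8.80 (top 43.6%), and no SCI peak.

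Of the lineage transcription factors, Myrf had the position that stood highest in both lists. MYRF, the myelin regulatory factor, switches on myelin genes as oligodendrocytes mature (gene ID 225908, chromosome 19, 10208271 to 10240777). Its only SCI peak, chr19:10225767-10225930, scored 14.98 (rank 3279, top 9.05%) and contained the whole of the sham peak chr19:10225867-10225929, which scored 46.2 (rank 456, top 0.514%). It was the only shared position of the 12 inside a member and the only one in the top 10% of both lists. That sham peak was 63 bp wide, whereas 50 of the 52 sham peaks had the list's usual width of 190 bp and all 37 SCI peaks had 164 bp. The other 3 sham peaks at Myrf scored 13.8, 7.82 and 5; the strongest of them lay inside Dagla, the gene of a diacylglycerol lipase.

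Sox10 encodes the factor that defines the lineage from progenitor to mature cell (gene ID 20665, chromosome 15, 79154913 to 79164490). Its 4 SCI peaks scored between 8.24 and 11.6, and its 7 sham peaks scored between 5.85 and 20.6. None of the SCI peaks lay in the gene, while 2 weak sham peaks did, at top 66.6% and 79.9%. Both shared positions lay beyond the lower end, in neighbours. The closer, inside Polr2f, an RNA polymerase subunit gene, had the SCI peak chr15:79141781-79141944 (top 22.1%) and the sham peak chr15:79141752-79141941 (top 71.1%), with 161 bp in common. The farther, inside 1700088E04Rik, had the SCI peak chr15:79138387-79138550 (top 36.2%) and the sham peak chr15:79138408-79138597 (top 34.5%), with 143 bp in common. The best SCI peak, chr15:79198690-79198853 (top 18.04%), lay 34.3 kb beyond the higher end inside Gm10863, and the best sham peak, chr15:79139198-79139387 (top 8.16%), stood 824 bp from the nearest SCI centre.

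Pdgfra encodes the receptor for platelet-derived growth factor that drives progenitors to divide; perivascular fibroblasts carry it too. It is the only member with no other protein-coding gene in its window (gene ID 18595, chromosome 5, 75151322 to 75198206), and it had 7 SCI and 7 sham peaks. The SCI peaks scored between 5 and 14.4, and the best, chr5:75190238-75190401 (top 10.2%), lay inside the gene. The sham peaks scored between 5.32 and 46.7, and the best, chr5:75172808-75172859, also inside the gene, ranked 436 (top 0.491%) and was 52 bp wide. These best peaks stood apart: the nearest SCI centre to the sham peak was 6082 bp away. The 1 shared position lay 13.7 kb upstream in the transcript Gm19583, where the SCI peak chr5:75137518-75137681 (top 19.8%) and the sham peak chr5:75137641-75137830 (top 87.5%) overlapped by 41 bp.

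Rtn4 encodes Nogo, a protein of oligodendrocyte membranes that limits the regrowth of cut axons (gene ID 68585, chromosome 11, 29692898 to 29744414). It held the strongest sham peak of all 10 genes, chr11:29731345-29731534, with a score of 49.995 (rank 314, top 0.354%). The nearest SCI centre was 47700 bp from it, and no SCI peak lay in the gene. The 4 SCI scores were 9.95, 8.40, 7.58 and 7.50, and the 7 sham scores were 49.995, 35.1, 30.6, 30.4, 18.6, 7.23 and 5.62. In the top 5% of their lists Rtn4 thus had 0 SCI and 4 sham peaks, its best SCI peak being chr11:29665250-29665413, 27.6 kb upstream in the top 25.8%. The shared position lay downstream inside Eml6, a gene of a microtubule-associated protein, with the SCI peak chr11:29779058-29779221 (top 47.4%) and the sham peak chr11:29779096-29779285 (score 35.1, top 1.55%). The sham peak that scored 30.4 (top 2.63%) also lay inside Eml6. For both of these strong sham peaks Eml6, and not Rtn4, was the nearest protein-coding gene.

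**Figure D3:**
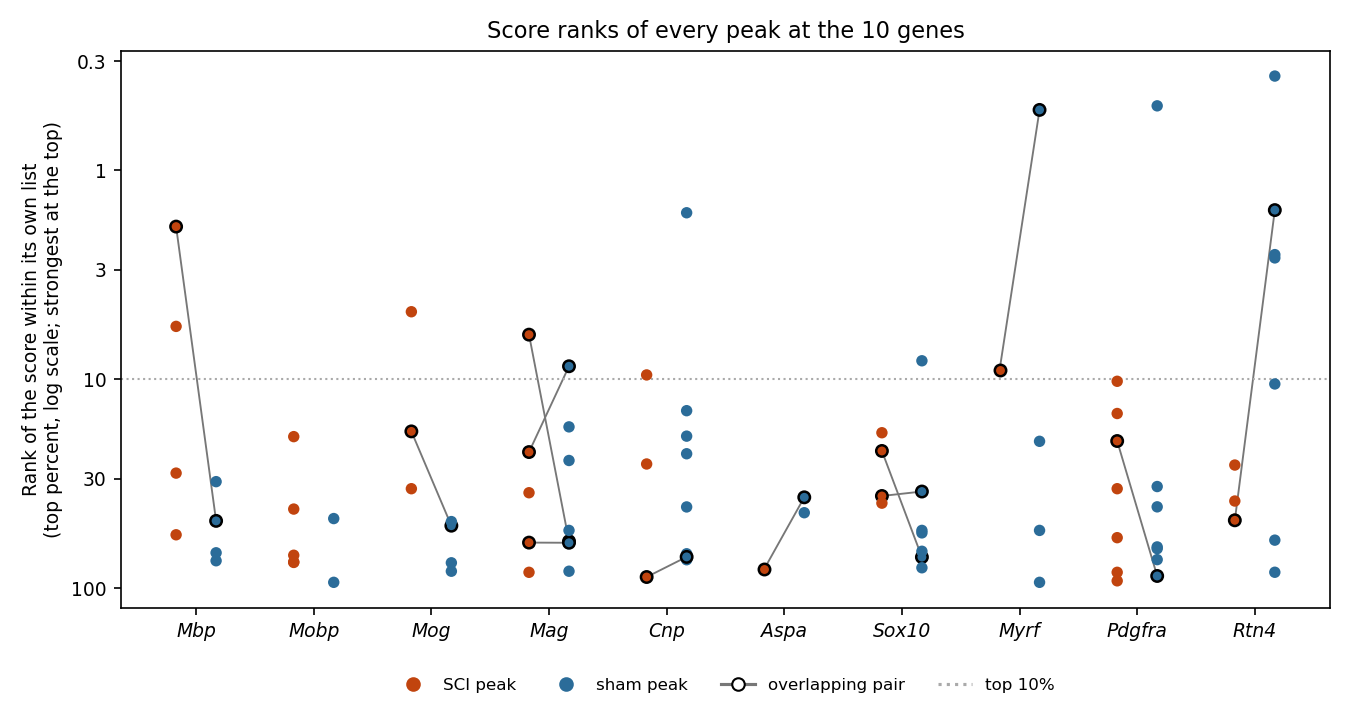
Rank of each peak's score within its own list (top percent, log scale, strongest at the top) for SCI (left) and sham (right) at each gene; grey lines join the 12 overlapping pairs. The SCI points run from the top 1.86% at Mbp downward, and the 3 sham points above the top 1% are at Rtn4, Pdgfra and Myrf.

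Across the members 12 of the 37 SCI peaks lay over a sham peak by at least 1 bp, 32.4% (95% exact interval 18.01 to 49.8%), where 23% of the SCI peaks near protein-coding genes did. From the other side 12 of 52 sham peaks were shared, 23.1% (12.5 to 36.8%), against 9.34%. By this 1 bp rule shared positions occurred at 9 of 10 members, all but Mobp. Of all protein-coding genes 41.5% had one, as did 10 of the 24 genes of a further myelin and oligodendrocyte list. With overlap of at least 50% of both peaks they remained only at Mbp, Mag, Sox10 and Rtn4, and no background was computed for that rule. The shares by the 1 bp rule are not matched for the number of peaks. The median per window was 4 SCI peaks at members and 2 at all protein-coding genes. At Cnp, Aspa, Sox10 and Rtn4 every shared position lay inside a neighbouring gene. Of the SCI peaks 6 were in the top 10% of their list, 16.2% (6.19 to 32.0%), with a background of 10.5%; of the sham peaks 9 were, 17.3% (8.23 to 30.3%), with a background of 10.7%. Of these strong peaks 3 of the 6 in SCI and 3 of the 9 in sham were shared, where 43.4% of such SCI peaks and 21.1% of such sham peaks near protein-coding genes were, and 1 position, in Myrf, was in the top 10% of both lists. In the top 1% there were 0 SCI and 3 sham peaks, with backgrounds of 1% and 1.07%. The lists differ in length, so ranks in them show no change in binding at a position.

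Attribution to the members was limited by their neighbours. The member was the nearest protein-coding gene for 20 of the 37 SCI peaks and 27 of the 52 sham peaks. Another gene held 17 SCI and 22 sham peaks. Gene bodies of the members made up 25.9% of the windows and held 6 SCI peaks (16.2%, interval 6.19 to 32.0%) and 11 sham peaks (21.2%, 11.1 to 34.7%). The nearest peak beyond the 50 kb limit lay at 54.8 kb in SCI (Sox10, score 10.4) and at 51.1 kb in sham (Cnp, score 11.2). The farthest within it lay at 48.9 kb in SCI (Cnp) and 48.7 kb in sham (Aspa).

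A list of 24 other myelin and oligodendrocyte genes was described in the same way. It had 20 members with an SCI peak within 50 kb and 22 with a sham peak, 83.3 and 91.7%, close to the shares of all protein-coding genes given above. SCI peaks made up 32.7% of its 165 peaks (25.6 to 40.5%), against 28.9% at all genes. With the shortened sham list the share was 53.5% (43.3 to 63.5%), against 49.1%. Among peaks at or above the list median it was 34.5% (24.5 to 45.7%), against 28.9%. Of its 54 SCI peaks 14 were shared, 25.9% (14.96 to 39.7%), against 23%. Of its 111 sham peaks 14 were shared, 12.6% (7.07 to 20.3%), against 9.34%. Among the 3 genes with the best SCI peaks, Lingo1, a partner of the Nogo receptor, led with chr9:56683460-56683623 inside the gene (score 25.9, top 1.32%), shared with a sham peak in the top 27.95%. Bcas1, a marker of early myelinating cells, had one 113 bp outside the gene (score 22.5, top 2.30%), shared with a sham peak in the top 55.8%. Ugt8a, the enzyme that makes galactosylceramide, had one inside the gene (score 18.7, top 4.55%) with no sham peak over it.

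In sham the best peaks of the list stood at Rtn4r, the Nogo receptor gene (score 49.8, top 0.364%, 29.8 kb away and nearest to Prodh), at Cspg4 (the Odf3l1 position shown above) and at Gpr17, a receptor of committed progenitors (score 30.8, top 2.47%, inside Lims2). Opalin, Sox8, Zfp488 and Nkx2-2 had no SCI peak within 50 kb, and Olig2 and Nkx2-2 had no sham peak. Sox8, Olig2, Zfp488 and Nkx2-2 encode transcription factors of the lineage, and Opalin a membrane protein of mature cells.

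**Figure D4:**
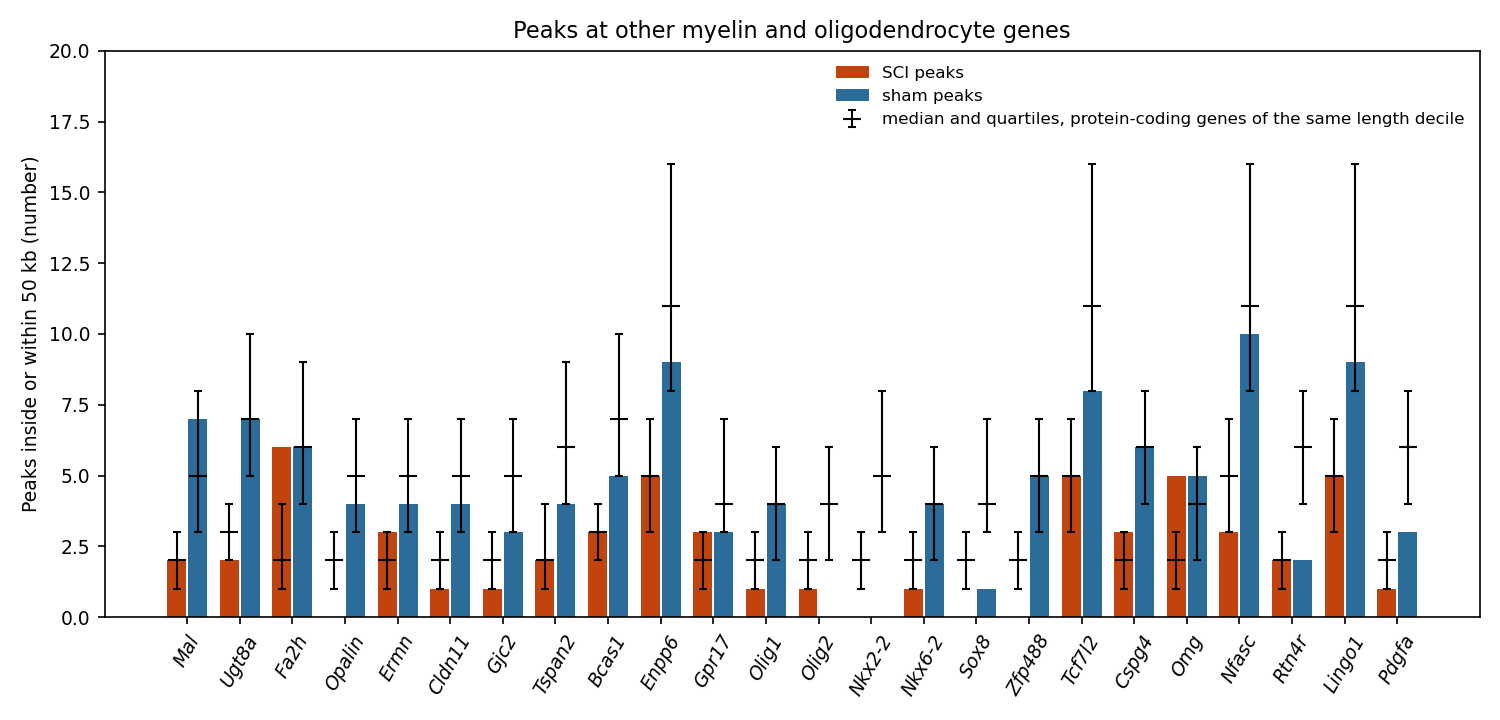
Number of SCI (left bar) and sham (right bar) peaks inside or within 50 kb of 24 other myelin and oligodendrocyte genes, with the median and quartiles of protein-coding genes of the same length decile in black. The SCI bars of Fa2h and Omg exceed their upper quartile (2 of 24, against 18% of all protein-coding genes). No sham bar does (0 of 24, against 20.8%), and Nkx2-2 has no bar. Below the lower quartile are 4 SCI counts (Nkx2-2, Opalin, Sox8 and Zfp488, against 15.6%). In sham 5 counts are below it (Nkx2-2, Olig2, Pdgfa, Rtn4r and Sox8, against 19.1%).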

How the data were processed

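The STAT3 ChIP peak lists of SCI and sham were used, each matched to its sample by title. Reads were aligned to mm10 with Bowtie2, per the submitters' processing notes. No source used here names the caller, control or threshold behind the peaks. The authors deposited a score per peak, 5 or more in every row, and a column in the place of a −log10 q-value, which ran from 3.22 to 4.36 at the members in SCI and from 3.27 to 4.05 in sham and was not used further. The files hold no read counts, so depth is unknown.

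Unplaced sequence was left out, and chromosomes 1 to 19, X and Y were kept; ranks within a list give tied scores their best rank. Genes came from RefSeq (GRCm38.p6), whose table has no exons, so exonic and intronic peaks are not told apart. The length background used 10 groups of protein-coding genes. The members, the list of 24 other genes and the alternatives were chosen with earlier results of these data known. Every member is described, with the best peak of each list and every shared position; of the 24, the 3 with the best peak in each list and those with no peak are named. A further gene planned for that list was not analysed here, which changes no value of the 10 members. With 1 library per condition no test was run. Alternatives changed the window, the peaks used and the overlap rule. Window counts and overlaps were tested on simulated data. The scripts ran on Python 3.11.15 with pandas 2.3.3, numpy 2.4.6, matplotlib 3.10.9 and scipy 1.17.1.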

Additional observations from a re-analysis of the deposited data

How the results depend on the processing

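The numbers of peaks went with the window, and no direction between SCI and sham was tested. Inside the genes alone, 4 members had an SCI peak, with 6 SCI and 11 sham peaks and 1 shared SCI peak. Of the 24 other genes 11 (SCI) and 11 (sham) held a peak, 45.8% each, against 33.4% and 51% of all protein-coding genes. With 5 kb on either side, 5 members had an SCI peak, with 7 SCI and 16 sham peaks and 2 shared. Of the 24, 11 had an SCI peak (45.8%) and 15 a sham peak (62.5%), against 43.9% and 66.7%. With 10 kb the members had 12 SCI and 25 sham peaks with 5 shared. Again 11 of the 24 had an SCI peak, and no background share was computed for this window. Scores at or above the list median left 26 SCI and 26 sham peaks and 5 shared SCI peaks. The shortened sham list left 20 sham peaks, none at Mobp or Mog, and 5 shared. Counting only peaks whose nearest protein-coding gene was the member left 20 SCI and 27 sham peaks with 6 shared. Shared SCI peaks numbered 6 with overlap of at least 50% of both peaks and 7 with centres within 100 bp, and 13 within 1000 bp. Under the 50% rule Mog, Cnp, Aspa, Myrf and Pdgfra lost their only shared position, so the Myrf position in the top 10% of both lists dropped out. All 10 members kept a sham peak in every window but the gene alone (7). No paired analysis was possible because each condition has 1 library, and for the same reason no library could be left out. Depth is unknown, so absence of a peak is no evidence that STAT3 was not bound.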
